A study of Arabidopsis thaliana with 12 samples.

Results

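Transcript levels were compared between Arabidopsis seedlings that overexpress GEM and seedlings of the insertion line gem1. The comparison used 8 of the 12 arrays of the series, 4 of the overexpressor (GEMoe) and 4 of gem1. Arrays were matched by treatment and replicate number, which gave 4 paired differences for each of 32627 loci. All were made from RNA of whole seedlings in the Col-0 background at 10 days of age. GEMoe carries GEM behind the 35S promoter, a strong viral promoter active in most plant tissues. The gem1 seedlings carry a T-DNA insertion. Neither the place of that insertion nor whether several independent lines were used is given here. Each line was measured untreated and after treatment with 100 uM abscisic acid (ABA) for 2 hours, with 2 replicates in each group. The labels name no mock-treated seedlings, so handling and time cannot be told apart from ABA. Nor do the labels say that replicates came from separate cultures, so a p-value here covers the spread between these samples, which may be partly technical.

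GEM, short for GL2-EXPRESSION MODULATOR, is a protein with a GRAM domain that takes part in the choice between hair and hairless cell fate in the root epidermis. It is known to bind the replication licensing factor CDT1 and to limit the expression of the homeobox gene GL2, which represses hair fate. GEM belongs to a small plant family whose other members include ABA-responsive genes. ABA is the hormone of drought and seed dormancy. It is sensed by PYR/PYL receptors, which inhibit clade A protein phosphatases and so free the SnRK2 kinases and their transcription factors.

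Levels are log2 values, so that a difference of 1 is a 2-fold difference, and each is listed as replicate 1 and then replicate 2. They ran from 7.0 to 15.95 on the 8 arrays, whose medians lay between 12.16 and 12.22. Between 11.5% and 11.8% of the features on an array read over 15, near the top of the scale. Values there may be compressed, so that further increases could be hard to see, which was not tested. Replicate number took 39% of the variance among the 8 arrays, treatment 40.7% and line 2.38%. Differences were therefore taken within a pair of equal treatment and replicate number. A replicate set below means the 4 arrays that share a number. As in any whole-seedling sample, fewer cells of a type and less RNA per cell cannot be told apart.

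GEM itself stood first among all loci. It lies on the forward strand of chromosome 2, at 9541401 to 9545010 by the annotation of the array, which names no genome build. A pair of transcript features of 4 probes each read the gene. Feature 1 read 15.81 and 15.78 without ABA and 15.73 and 15.74 with ABA in GEMoe, against 14.38 and 14.61 without ABA and 14.44 and 14.59 with ABA in gem1. Every GEMoe array lay above every gem1 array. The mean difference was 1.26 (SE 0.07, SD of the differences 0.13, n = 4 pairs), or 2.39-fold. Each SE given here is the moderated value of the limma fit, which draws the spread of a locus towards that of all loci. For loci with a wide spread, such as IRT1 (SD of the differences 1.04, SE 0.40), it is smaller than the 4 pairs alone would give. The GEMoe values lie close to the top of the scale, so the true ratio may be larger than the measured one. In the limma fit across all loci GEM had the smallest p of all (8.66e-06), and its adjusted p was 0.282, above the threshold of 0.05. It passed with all 12 arrays in the fit (limma adjusted p = 0.0209) and with a variance trend (limma adjusted p = 0.000653). An exact permutation test that swaps the lines within pairs gave p = 0.125, the smallest value that 16 swaps allow. The exact permutation test over splits of the 8 arrays gave p = 0.0286, the smallest of 70 splits, and 0.0572 after adjustment over both features. This second test ignores the pairing by treatment and replicate number.

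Feature 2 of GEM, which spans 9541401 to 9545009, read differently in the 2 replicate sets. In GEMoe it read 11.36 and 9.56 without ABA and 11.98 and 9.38 with ABA, against 11.16 and 11.62 without ABA and 11.33 and 11.53 with ABA in gem1. GEMoe of replicate set 1 was thus near gem1, with a mean difference of 0.43, while GEMoe of replicate set 2 was lower by a mean of -2.10. Set 2 differed from set 1 by -2.53 (SE 0.20, unadjusted p = 0.000233, limma adjusted p = 1). Over all 4 pairs the difference was -0.84 (SE 0.56). The exact permutation p was 0.5 for pair swaps and 0.371 for splits. The GEMoe arrays of the 2 sets therefore did not read alike at the gene that defines the line, although feature 1 was high on all 4 of them. Feature 1 of gem1 stayed above 14, and without the place of the insertion neither feature checks the gem1 label.

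**Figure D1:**
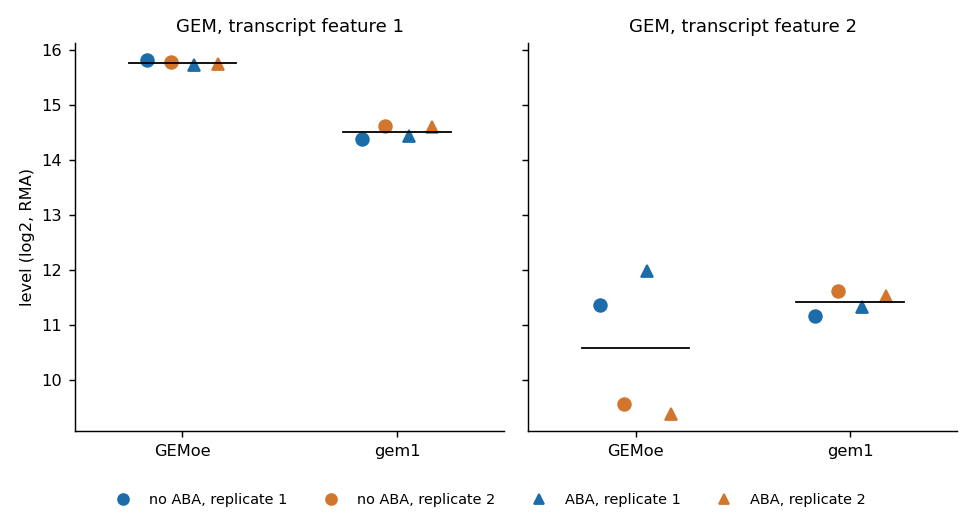
Levels of both GEM transcript features (y axis, log2 RMA values) on each of the 4 GEMoe and 4 gem1 arrays; circles are untreated and triangles ABA-treated, blue is replicate 1 and orange replicate 2, and bars are means. Feature 1 is above 15.7 on every GEMoe array and below 14.7 on every gem1 array, whereas for feature 2 only the orange GEMoe points, at 9.56 and 9.38, lie apart.

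The 10 loci next to GEM, 5 on either side, had small differences. Their mean differences ran from -0.12 (AT2G22440) to 0.17 (AGP2, an arabinogalactan protein), the smallest unadjusted limma p was 0.336, and 0 of them had the same sign in all 4 pairs. The cyclin CYCD2;1, which acts at the entry to the cell cycle, is among them and differed by -0.02 (SE 0.11).

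No locus, GEM included, passed the adjusted threshold in the mean over both treatments. In all, 858 of 32627 loci (2.63%) had an unadjusted limma p below 0.05, where 1631 would be expected if no locus differed and loci were independent. Of these, 351 (1.08%) were higher and 507 (1.55%) lower in GEMoe. The differences had the same sign in all 4 pairs at 1306 loci (4.0%) above 0 and at 1918 loci (5.88%) below 0. Random swaps of the lines within pairs would give 1 sign at a locus with a chance of 0.125, both directions together. A mean of 1 or more in addition left 6 loci above 0 (0.0184%) and 3 below 0 (0.00919%). All 4 GEMoe arrays lay above all 4 gem1 arrays at 49 loci (0.150%) and below them at 119 loci (0.365%). The share of loci that would separate in this way if no locus differed was not computed. The median size of these separated differences was 0.12 for the higher and 0.16 for the lower loci. A p that misses the threshold does not show that the lines are alike. The median moderated standard error was 0.09, so that many small differences could not be resolved with 4 pairs.

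Most differences seen in one pair were not of the same size in the others. Across loci the differences of the untreated pairs correlated at -0.43 (Pearson's r over 32627 loci, each pair from its own 2 arrays), and those of the ABA pairs at -0.26. Within replicate set 1 the correlation between treatments was 0.03 and within set 2 it was -0.52. The largest positive value, 0.42, joined the untreated pair of set 1 and the ABA pair of set 2. Genes within an array are not independent, so no p is given. The untreated pair of set 2 was the widest, with a standard deviation over loci of 0.35 and 0.972% of loci past 1 in either direction. In the other pairs these were 0.20 to 0.27 and 0.233% to 0.3%.

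**Figure D2:**
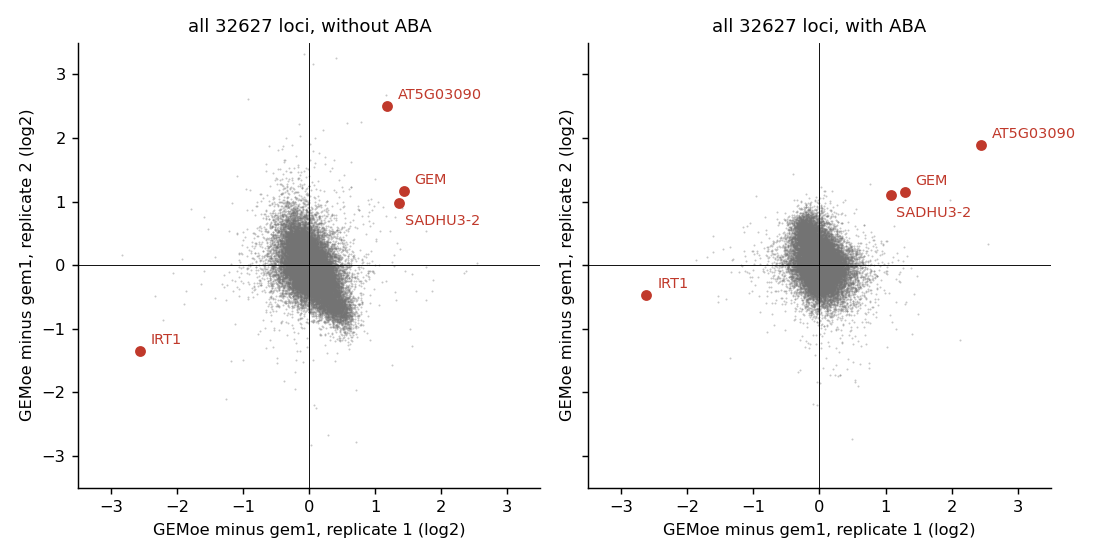
Paired differences of all 32627 loci (log2, GEMoe minus gem1), replicate 1 on the x axis and replicate 2 on the y axis, without ABA on the left and with ABA on the right; each grey point is a locus. The cloud slopes downwards in both panels (correlations -0.43 and -0.26), and GEM, SADHU3-2 and AT5G03090 (red) lie outside it at the upper right, IRT1 at the lower left.

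Besides GEM, 5 loci were above 0 in all pairs by a mean of 1 or more. SADHU3-2 (AT3G42658, chromosome 3, 14749400 to 14750294, reverse strand) is annotated as a transposable element gene, of the Sadhu family of retroposons. It read 12.45 and 12.59 without ABA and 11.89 and 12.18 with ABA in GEMoe, against 11.09 and 11.62 without ABA and 10.80 and 11.08 with ABA in gem1. The 4 differences lay between 0.97 and 1.36, with a mean of 1.13 (SE 0.08, 2.19-fold, limma adjusted p = 0.456). As with GEM, the lines did not overlap and the difference had about the same size in both treatments and both sets.

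AT5G03090 (chromosome 5, 725281 to 725962), a locus annotated as an unknown protein, had the largest mean difference. Its levels were 12.37 and 13.11 without ABA and 12.67 and 13.10 with ABA in GEMoe, against 11.20 and 10.60 without ABA and 10.22 and 11.21 with ABA in gem1. The mean difference was 2.00 (SE 0.24, 4.01-fold) and the lines did not overlap, but its unadjusted p was 0.000343 and its limma adjusted p was 1. PME61, a pectin methylesterase of the cell wall, read 12.87 and 12.14 without ABA and 13.21 and 12.28 with ABA in GEMoe. The gem1 arrays gave 11.58 and 11.38 without ABA and 11.24 and 11.26 with ABA. The mean difference of PME61 was 1.26 (SE 0.20), and the lines again did not overlap. QQS, an orphan gene that affects starch content, read 10.34 and 11.65 without ABA and 10.29 and 11.18 with ABA in GEMoe, against 9.71 and 10.02 without ABA and 9.53 and 9.91 with ABA in gem1. Its mean difference of 1.07 (SE 0.18) was larger in set 2 than in set 1, by 0.75 (unadjusted p = 0.0141). The cytochrome P450 gene CYP71B22 differed by 1.01 (SE 0.33), most of it in the untreated pair of set 2 (2.25, against 0.28 to 0.79 in the other pairs). Without that pair its mean was 0.60.

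Only 3 loci met the same rule below 0, and IRT1 and FRO2, both of iron uptake, are among them. The third, AT5G10760, is annotated as an aspartyl protease family protein. It read 12.48 and 11.14 without ABA and 13.63 and 12.24 with ABA in GEMoe, against 13.75 and 13.24 without ABA and 14.28 and 12.45 with ABA in gem1. The lines overlapped, and the mean difference was -1.06 (SE 0.32, unadjusted p = 0.0194).

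**Figure D3:**
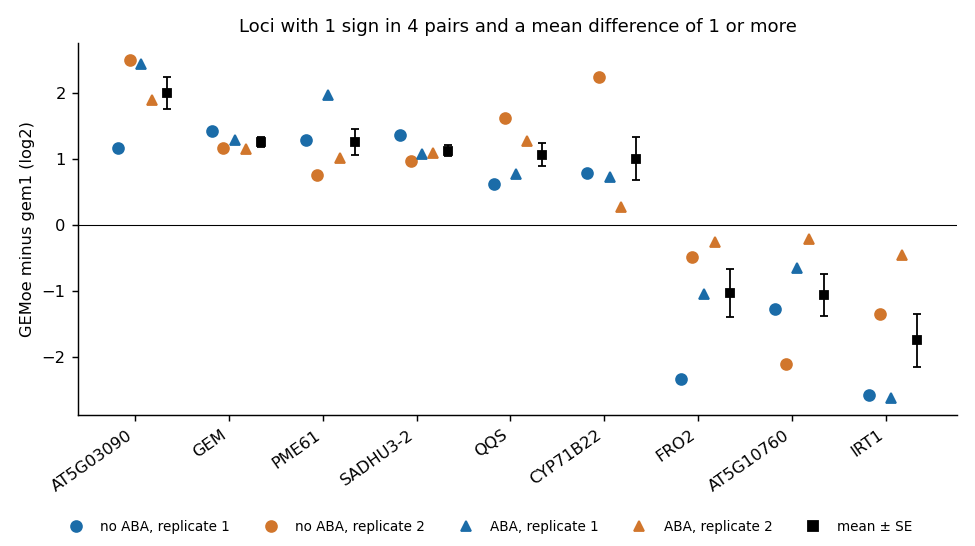
The 4 paired differences (log2, GEMoe minus gem1, y axis) of the 9 loci with 1 sign in all pairs and a mean of 1 or more in size; circles are untreated and triangles ABA-treated pairs, blue is replicate 1 and orange replicate 2, and black squares are means with moderated standard errors. GEM and SADHU3-2 have the tightest points, while IRT1 spreads from -2.62 to -0.46.

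Among the separated loci 19 of the 49 higher and 39 of the 119 lower ones have a symbol, and the 8 largest of each were listed after their values were seen. HEI10, which acts in meiotic crossover formation, read 12.13 and 12.45 without ABA and 12.40 and 12.14 with ABA in GEMoe, against 11.76 and 10.80 without ABA and 11.73 and 11.51 with ABA in gem1. Its mean difference was 0.83 (SE 0.22, unadjusted p = 0.0119). After GEM, SADHU3-2, PME61, QQS and HEI10, the remaining 3 higher loci differed by 0.13 to 0.27. The lower ones were led by EP1 at -0.47 (SE 0.17) and by D27 at -0.38 (SE 0.08, unadjusted p = 0.00407), a carotenoid isomerase of strigolactone synthesis. D27 read 11.55 and 11.58 without ABA and 11.17 and 11.47 with ABA in GEMoe, against 12.04 and 11.87 without ABA and 11.70 and 11.69 with ABA in gem1. ZIP7, of the zinc and iron transporter family, differed by -0.30 (SE 0.07), and MIR319c by -0.22 (SE 0.06).

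Among the 31 gene lists, iron uptake had the lowest median in the fit as designed. With the dimmest 30% of loci left out its median was -0.24, against -0.29 for seed storage and -0.28 for flavonoid genes, and without the ABA pair of set 1 it was -0.28, against -0.37 and -0.34 for those lists. Arabidopsis reduces ferric iron at the root surface with FRO2 and imports it through IRT1, under bHLH transcription factors that rise when iron is short. FIT, a listed member on the array, was left out because its symbol was not matched. None of the 12 genes kept passed the adjusted test. Their median difference was -0.42, beside -0.002 over all loci. In 3 of the 12 all 4 pairs were below 0 (5.88% of all loci), and 4 had an unadjusted p below 0.05 in that direction (1.55% of all loci).

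IRT1 (chromosome 4, 10707446 to 10709015), the root's main ferrous iron importer, read 10.87 and 9.43 without ABA and 8.51 and 8.81 with ABA in GEMoe, against 13.44 and 10.78 without ABA and 11.14 and 9.28 with ABA in gem1. The mean difference was -1.75 (SE 0.40, unadjusted p = 0.00638, limma adjusted p = 1), a level 3.37-fold higher in gem1. GEMoe was lower in each pair, but the 2 lines overlapped across pairs because the level also varied with treatment and set. FRO2, the ferric chelate reductase, read 10.87 and 11.09 without ABA and 11.10 and 11.65 with ABA in GEMoe, against 13.21 and 11.58 without ABA and 12.14 and 11.90 with ABA in gem1. Its mean difference was -1.03 (SE 0.36). NAS2, a nicotianamine synthase for metal transport within the plant, differed by -0.63 (SE 0.13, unadjusted p = 0.00464) with 4 differences from -1.07 to -0.35.

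The iron difference was mostly one of replicate set 1. The median of the list was -0.91 in both pairs of set 1, and -0.09 without ABA and -0.01 with ABA in set 2. BHLH100, a transcription factor of the iron deficiency response, shows the pattern best. It read 8.76 and 9.01 without ABA and 8.71 and 8.88 with ABA in GEMoe, against 11.60 and 8.85 without ABA and 10.42 and 8.75 with ABA in gem1. Only the gem1 arrays of set 1 were high, and set 2 differed from set 1 by 2.43 (SE 0.42, unadjusted p = 0.00457, limma adjusted p = 1). IRT1 differed between the sets by 1.69 (SE 0.34, unadjusted p = 0.0076), with -2.57 and -2.62 in set 1 and -1.35 and -0.46 in set 2. BHLH38 and BHLH101, close relatives of BHLH100, differed by -1.17 and -1.43 in the untreated pair of set 1, and by 0.02 and 0.29 in the ABA pair of set 2. FER1, a ferritin that stores iron, differed by -0.07 (SE 0.06) at levels over 15, and the regulators MYB10 and MYB72 by 0.05 and 0.07.

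Roots are where most of these genes are expressed, so the root markers are given beside them. The 17 root tissue markers, which include IRT1, had a median difference of 0.00. Their mean level per array ran from 12.10 to 12.86 in GEMoe, against 12.27 to 13.10 in gem1. By pair their medians were -0.11 and 0.09 without ABA and 0.06 and -0.17 with ABA, with 1 of the 17 above 0 (4.0% of all loci) and 3 below 0 (5.88% of all loci) in all pairs. The part of root share in the iron values was not tested.

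**Figure D4:**
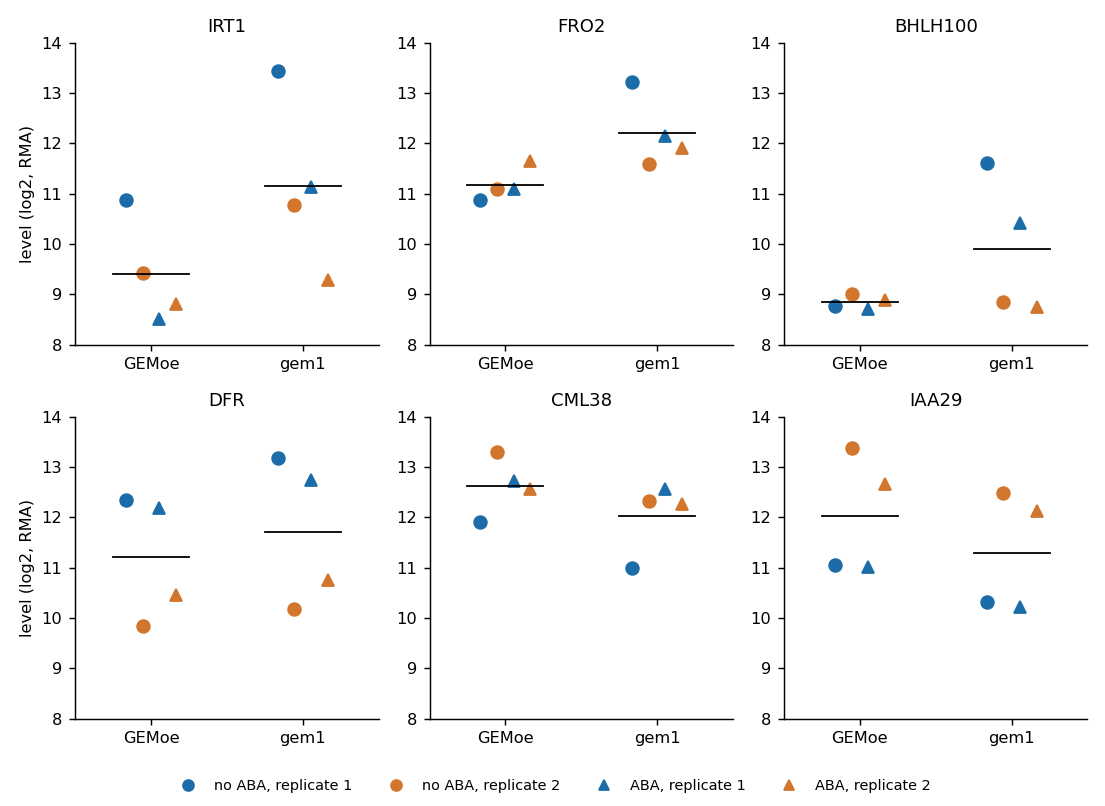
Levels (y axis, log2 RMA values) of 6 list members on the 4 GEMoe and 4 gem1 arrays; circles are untreated and triangles ABA-treated, blue is replicate 1 and orange replicate 2, and bars are means. For BHLH100 only the blue gem1 points stand high (11.60 and 10.42), DFR and IAA29 differ more between replicate numbers than between lines, and each IAA29 point of GEMoe lies above its gem1 partner.

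Flavonoid and anthocyanin genes, which make the pigments of stressed seedlings, had a median of -0.33. Of the 13, none passed the adjusted test, 6 were below 0 in all 4 pairs (5.88% of all loci) and 6 had an unadjusted p below 0.05 in that direction (1.55% of all loci). The pair medians were -0.65 and 0.03 without ABA and -0.29 and -0.30 with ABA. PAP1 (AT1G56650), the MYB activator of anthocyanin synthesis, read 11.72 and 9.54 without ABA and 11.88 and 12.26 with ABA in GEMoe, against 12.37 and 10.28 without ABA and 13.05 and 12.27 with ABA in gem1. Its mean difference was -0.64 (SE 0.19, unadjusted p = 0.0177). DFR, the reductase that commits the pathway to anthocyanins, differed by -0.84 and -0.34 without ABA and by -0.57 and -0.30 with ABA, with a mean of -0.51 (SE 0.11, unadjusted p = 0.00477). Its level on the same arrays was above 12 throughout set 1 and below 11 throughout set 2, a wider gap than that between the lines. The other 4 genes below 0 in all pairs were the glucosyltransferase UF3GT (-0.50), the hydroxylase gene F3H (-0.35), the flavonol regulator MYB12 (-0.33) and PAP2 (MYB90, -0.16). Chalcone synthase, TT4, the first enzyme of the pathway, differed by -0.03 (SE 0.06) at levels above 15.

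Rapid stress and touch genes, which respond within minutes to handling and wounding, had a median of 0.23. None passed the adjusted test. Of the 12, 6 were above 0 in all 4 pairs (4.0% of all loci) and 5 had an unadjusted p below 0.05 in that direction (1.08% of all loci). The pair medians were 0.42 and 0.27 without ABA and 0.12 and 0.09 with ABA. CML38, a calmodulin-like calcium sensor, read 11.90 and 13.29 without ABA and 12.73 and 12.56 with ABA in GEMoe, against 10.99 and 12.33 without ABA and 12.56 and 12.26 with ABA in gem1. The mean difference was 0.59 (SE 0.16, unadjusted p = 0.015). WRKY33, a transcription factor of defence, differed by 0.63 and 1.24 without ABA and by 0.33 and 0.05 with ABA (mean 0.56, SE 0.20). CML37 and the xyloglucan enzyme gene TCH4 differed by 0.41 and 0.31. The cold regulators CBF1, CBF2 and CBF3 (DREB1A) did not share the direction, at -0.09, -0.01 and -0.31.

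Early auxin genes had a median of 0.15 over 9 members, none past the adjusted threshold. By pair the medians were -0.09 and 0.53 without ABA and 0.23 and 0.15 with ABA. The list was led by IAA29, a repressor of auxin signalling that is induced by warmth and shade. It read 11.05 and 13.37 without ABA and 11.01 and 12.66 with ABA in GEMoe, against 10.31 and 12.49 without ABA and 10.22 and 12.13 with ABA in gem1. The differences of IAA29 were close together, at 0.52 to 0.88, with a mean of 0.73 (SE 0.08, unadjusted p = 0.000187, limma adjusted p = 1). IAA19 differed by 0.28 (SE 0.09). GH3.3, an enzyme that conjugates auxin, differed by 0.42 (SE 0.25), with 1.33 in the untreated pair of set 2 and -0.16 in the ABA pair of that set.

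Hypoxia genes, at a median of 0.20 over 11 members, depended on 1 pair. Their median was 0.84 in the untreated pair of set 2, and -0.19, 0.21 and -0.05 in the untreated pair of set 1, the ABA pair of set 1 and the ABA pair of set 2. Without the untreated pair of set 2 the median of the list was -0.01. PCO1 (AT5G15120), a cysteine oxidase that senses oxygen, read 10.21 and 12.11 without ABA and 11.34 and 10.14 with ABA in GEMoe, against 10.29 and 8.79 without ABA and 10.96 and 10.38 with ABA in gem1. Its difference of 3.33 in the untreated pair of set 2 was the largest at any locus in any pair, and it joined the highest GEMoe value with the lowest gem1 value. In the same pair LBD41 differed by 2.13, and the cold- and ABA-induced genes COR15A and COR15B by -1.95 and -2.24, while in the other pairs COR15A lay between -0.22 and -0.03.

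Genes of the processes for which GEM is known differed little. The 20 epidermal fate regulators had a median of -0.06. Of these, 0 were above 0 in all pairs (4.0% of all loci) and 1 was below 0 in all pairs (5.88% of all loci), about the share over all loci. GL2, the gene that GEM is named for, read 12.75 and 12.72 without ABA and 12.97 and 12.16 with ABA in GEMoe, against 12.79 and 13.01 without ABA and 12.82 and 12.46 with ABA in gem1. The mean difference was -0.12 (SE 0.10), and the lines overlapped. WER (MYB66) and CPC, which act on opposite sides of the hair decision, differed by -0.12 and 0.05, EGL3 by -0.22 and TTG1 by -0.03. The member below 0 in all pairs was GIS, a zinc finger regulator of shoot trichomes, at -0.54 (SE 0.14, unadjusted p = 0.0112). GIS read 11.43 and 9.38 without ABA and 11.26 and 10.17 with ABA in GEMoe, against 12.32 and 9.45 without ABA and 11.82 and 10.78 with ABA in gem1.

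The 18 genes of replication licensing and the cell cycle ran from -0.15 for CDC6 to 0.10 for the mitotic kinase CDKB2;1, with a median of -0.03. CDT1A and CDT1B, the licensing factors to which GEM is tied, both differed by -0.11 (SE 0.14 and 0.17). The medians of all 18 were -0.23 and 0.30 in the untreated pairs and -0.03 and -0.20 in the ABA pairs, which differ in sign. Over the 23 genes of root hair growth the median was 0.01, with pair medians of -0.17 and 0.20 without ABA and 0.37 and -0.36 with ABA. All 4 pairs were above 0 in 0 of the 23 (4.0% of all loci) and below 0 in 0 of them (5.88% of all loci), which at these shares says little. The 14 genes of the stomatal lineage had a median of 0.03 and the 17 of the epidermal layer and cuticle -0.03, though 10 of the 17 read over 15 on all 8 arrays.

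The 8 GEM-like GRAM family genes kept include GEM itself, while GER5 was left out because its symbol was not matched. Apart from GEM, AT5G08350 had the largest difference. It read 11.19 and 11.57 without ABA and 11.58 and 10.37 with ABA in GEMoe, against 11.04 and 10.81 without ABA and 11.17 and 10.11 with ABA in gem1. The mean was 0.40 (SE 0.11, unadjusted p = 0.0162), with every pair above 0. Neighbouring relatives AT5G23350, AT5G23360 and AT5G23370 differed by 0.08, 0.00 and 0.18. Whether probes are shared among such relatives was not tested.

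Lists of ABA signalling had medians near 0. They were 0.02 for 14 receptors, -0.06 for 9 clade A phosphatases, -0.01 for 10 SnRK2 kinases, -0.03 for 10 ABA transcription factors and -0.05 for 15 genes of ABA synthesis and breakdown. None of the genes in these 5 lists had an unadjusted limma p below 0.05 in either direction, where 2.63% of all loci did, so that a count of 0 is near the background. The most distant receptors were PYL10 at -0.21 (SE 0.09) and PYL5 at 0.17 (SE 0.09). Among the phosphatases HAI2 and HAI3 differed by -0.18 and -0.16. Over the 24 ABA-induced markers the median was 0.00, with pair medians between -0.02 and 0.02. On the ABA arrays the mean level of these markers was 14.94 and 15.06 in GEMoe, against 14.89 and 15.02 in gem1, and that of the phosphatases 15.27 and 15.31 in GEMoe, against 15.26 and 15.32 in gem1. These levels are near the top of the scale, where values may be compressed and a difference harder to see, which was not tested. On the untreated arrays the mean level of the markers was 12.94 and 11.79 in GEMoe, against 13.04 and 11.85 in gem1, below that range. Mean differences of the 24 markers ran from -0.58 to 0.53. NAC019, a stress transcription factor, was the highest of the markers at 0.53 (SE 0.20), with 1.22 and 0.54 without ABA and 0.29 and 0.06 with ABA.

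In seedlings without ABA no locus passed the adjusted test between the lines, and 559 (1.71%) had an unadjusted limma p below 0.05. A mean of 1 or more with both pairs above 0 was found at 19 loci (0.0582%), and the same below 0 at 13 (0.0398%). ABCG40, a membrane transporter that takes up ABA, read 12.54 and 11.07 in GEMoe, against 11.13 and 10.17 in gem1, with a mean difference of 1.15 (SE 0.19, unadjusted p = 0.00345). PORA, a light-dependent enzyme of chlorophyll synthesis, read 13.27 and 14.21 in GEMoe, against 12.28 and 12.85 in gem1, with a mean of 1.17 (SE 0.19). ERF2, an ethylene response factor, differed by 1.02 (SE 0.13), and the zinc finger gene AT5G44260 by 1.01. In the ABA pairs ABCG40 (0.34 and 0.83), PORA (0.93 and 0.39), ERF2 (0.44 and 0.12) and AT5G44260 (0.73 and 0.16) also lay above 0. On the lower side the P450 gene CYP82C2 read 10.02 and 10.05 in GEMoe, against 11.03 and 11.54 in gem1, with a mean of -1.25 (SE 0.22). The transposable element gene AT5G49090 differed by -1.03. For the receptor-like kinase CRK4 (mean -1.01) the pairs were uneven, at -0.49 and -1.54, as they were for the metal transporter gene ZIP8 (mean -1.25), at -1.90 and -0.61.

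With ABA no locus passed the adjusted test either, and 266 (0.815%) had an unadjusted limma p below 0.05. A mean of 1 or more with both pairs above 0 was found at 6 loci (0.0184%), of which GEM (1.22), SADHU3-2 (1.09), AT5G03090 (2.17), PME61 (1.49) and QQS (1.02) were named for both treatments. The other, DXPS1, rested on replicate set 1. On the lower side were 7 loci (0.0215%). HSP17.6II, a small heat shock protein, read 11.16 and 12.26 in GEMoe, against 12.52 and 13.72 in gem1 (mean -1.40, SE 0.33). The pairs of the other named loci were uneven. IRT1 differed by -2.62 and -0.46, the transposable element gene AT5G44925 by -1.53 and -0.58 and the receptor-like kinase CRK13 by -0.33 and -1.68. AT2G17740 differed by -0.10 and -2.18 and AT4G20000 by -0.04 and -2.20.

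Whether the line difference depended on ABA was tested directly, as the difference with ABA minus that without. No locus passed the adjusted threshold, 310 (0.950%) had an unadjusted limma p below 0.05, and the smallest adjusted p was 1. The ABA pairs did not overlap the untreated pairs, by 1 or more in the mean, at 9 loci (0.0276%) in the higher and 21 (0.0644%) in the lower direction. NAS1 differed by -0.06 and 0.75 without ABA and by -0.91 and -0.74 with ABA, or -1.17 between treatments (SE 0.31, unadjusted p = 0.0184). ORA47, a regulator of jasmonate synthesis, differed by 0.85 and 0.50 without ABA and by -0.48 and -0.23 with ABA (-1.03 between treatments, SE 0.20). ACS8, an enzyme of ethylene synthesis, differed by 0.52 and 1.41 without ABA and by -0.21 and -0.33 with ABA (-1.24 between treatments, SE 0.34). In the other direction AT5G10760 differed by -1.27 and -2.10 without ABA and by -0.65 and -0.21 with ABA, 1.26 higher with ABA (SE 0.35).

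The replicate sets were compared in the same way. No locus passed the adjusted threshold for set 2 minus set 1, and 673 (2.06%) had an unadjusted limma p below 0.05. The differences of set 2 lay above those of set 1 by 1 or more in the mean at 30 loci (0.0919%) and below them at 50 loci (0.153%). DXPS1, annotated as a 1-deoxy-D-xylulose-5-phosphate synthase, read 10.69 and 8.42 without ABA and 11.23 and 8.77 with ABA in GEMoe, against 8.32 and 8.52 without ABA and 8.68 and 8.44 with ABA in gem1. Only the GEMoe arrays of set 1 were high, and the sets differed by -2.35 (SE 0.20, unadjusted p = 0.000347). CSLG2, a cellulose synthase-like gene, read 10.92 and 9.14 without ABA and 13.13 and 11.31 with ABA in GEMoe, against 9.04 and 9.38 without ABA and 11.65 and 12.08 with ABA in gem1 (sets -2.19, SE 0.26). The seed storage protein gene CRU3 differed by 0.39 and 0.54 in set 1 and by -1.19 and -1.11 in set 2. With BHLH100 and IRT1, AT2G14247 and AT1G47400, annotated as an expressed and an unknown protein, were high on the gem1 arrays of set 1. AT2G14247 read 8.49 and 8.43 without ABA and 8.49 and 8.60 with ABA in GEMoe, against 10.36 and 8.84 without ABA and 10.10 and 8.40 with ABA in gem1.

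**Figure D5:**
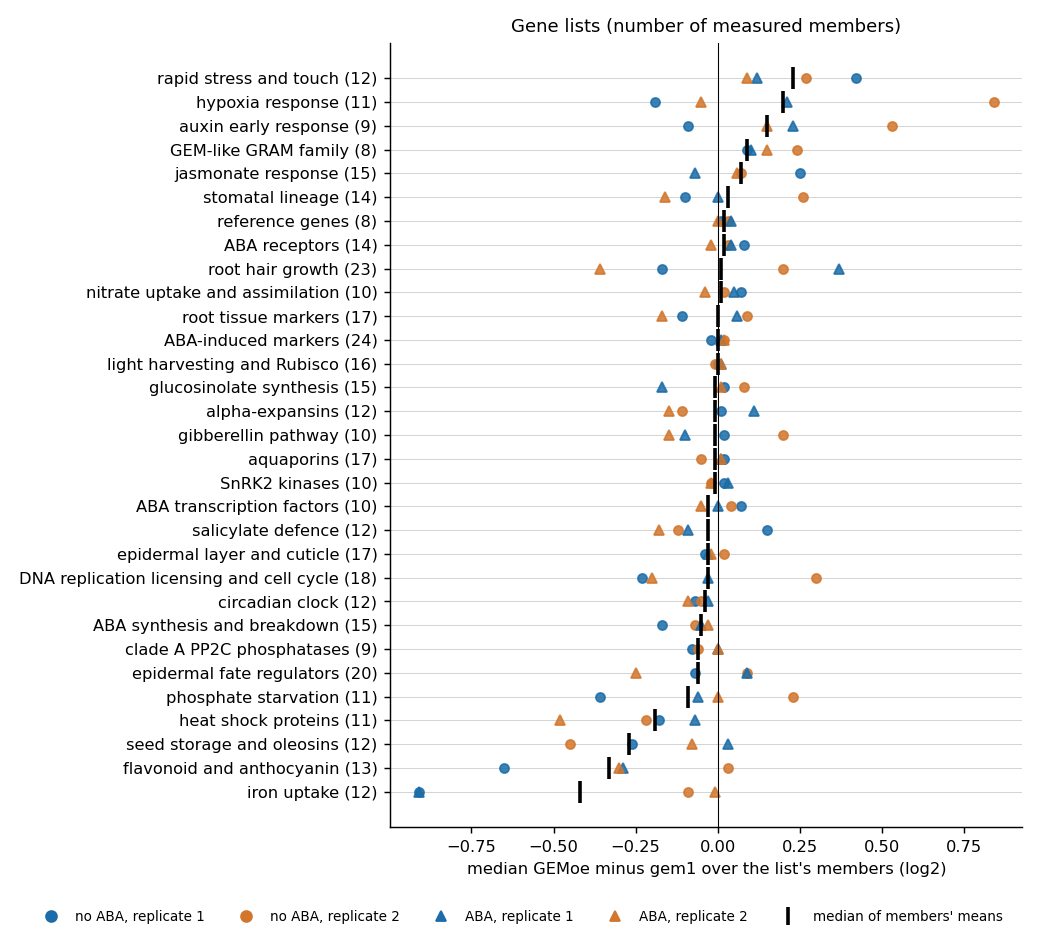
Median difference (log2, GEMoe minus gem1, x axis) of each of 31 gene lists in the 4 pairs; circles are untreated and triangles ABA-treated pairs, blue is replicate 1, orange is replicate 2, and the black bar is the median of the members' mean differences. Iron uptake lies at -0.91 in both blue pairs and near 0 in the orange ones, and most other lists straddle 0.

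In all, 417 of 419 memberships in the 31 lists were kept, which are 415 distinct loci, and 0 of these passed the adjusted threshold. List medians ran from -0.42 to 0.23, with all 4 pair medians above 0 for 2 lists (rapid stress and touch, and the GEM-like family) and below 0 for 4. The GEM-like family includes GEM itself, which GEMoe overexpresses by design. The 12 seed storage and oleosin genes, which a seedling should hardly express, had a median of -0.27 (-0.14 without the untreated pair of set 2), with pair medians of -0.26 and -0.45 without ABA and 0.03 and -0.08 with ABA. Their mean level per array ran from 9.70 to 11.15 in GEMoe, against 10.00 to 11.40 in gem1. The 11 heat shock genes had a median of -0.19 (-0.11 without the ABA pair of set 2) and the 11 phosphate starvation genes -0.09. Jasmonate response genes had a median of 0.07 over 15, salicylate defence genes -0.03 over 12 and aquaporins -0.01 over 17. Light harvesting and Rubisco genes of green tissue had a median of 0.00 over 16, of which 13 read over 15 on all 8 arrays, and the 8 reference genes stood at 0.02.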

How the data were processed

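Per the labels' protocols, plants grew on agar plates at 22 C with 16 h of light and 8 h of dark, and 10 ug of total RNA per sample was turned into amplified, Cy3-labelled cDNA for 1-colour arrays. The deposited values are log2 levels of transcript features. Per the submitters' processing notes, the authors used RMA. That method subtracts background, gives all arrays the same distribution and combines the probes of a feature, so a shift of all transcripts would not be seen. The sources used here give no version, array design or build. Each feature rests on 1 to 4 probes, per the file headers (59 features had 1). The scale was taken from the values. No background or saturation flags were used, and precision is limited by the number of arrays.

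The 37118 features read 32627 loci. For the 3602 loci with several features, the one of highest mean over all 12 arrays stood for the locus. Names were taken from the array annotation and a gene table of assembly TAIR10.1 (31993 loci matched, 10836 with a symbol). A table of all samples gave identical numbers (largest difference 0 over 445416 values).

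The limma fit (limma 3.58.1, R 4.3.3, lmFit and eBayes without trend) was made on the 4 paired differences per locus, GEMoe minus gem1, with 3 residual degrees of freedom. Each treatment, the difference between treatments and that between replicate sets came from fits with 1 mean per treatment or set. Tests were two-sided, and p-values were adjusted by Benjamini-Hochberg over all loci, with a threshold of 0.05. Replicate numbers come from the labels. Deviations from group means correlated between groups of equal number at 0.44 to 0.80 in all 6 pairs of groups, so the numbers were taken to pair the arrays.

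Loci were taken for naming if they had 1 sign in all pairs of a comparison and a mean of at least 1 in size. For the contrasts between treatments and between sets, loci were taken instead where the differences of the 2 sides did not overlap, with a contrast of at least 1 in size. They were taken by smallest unadjusted p (up to 12 per direction for both treatments together, 6 elsewhere). To these were added GEM and 5 loci on each side of it, the epidermal fate, replication and GEM-like genes, and the 2 most distant members of each other list. Not every locus taken in this way is named in the text. Other list members were named after their values were seen. The comparison, its members and the gene lists were chosen with earlier results of these data known. A list member whose symbol neither source gave for its locus was left out (2 of 419). These were GER5 (AT5G13200) of the GEM-like list and FIT (AT2G28160) of the iron list, which were both on the array. Tables and figures were made with Python 3.11.15, pandas 2.3.3 and matplotlib 3.10.9. Wild-type arrays entered only the choice of features and 1 alternative.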

Additional observations from a re-analysis of the deposited data

Results flagged for a closer look

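For the difference between treatments the naming rule took 6 loci in each direction. At 6 of these loci both untreated pairs lay on one side of 0 and both ABA pairs on the other. They were AT3G28899 (1.05 with ABA minus without), the prohibitin gene PHB7 (1.09), ORA47 (-1.03), the MATE efflux gene AT5G52050 (-1.07), ACS8 (-1.24) and AGP5 (-1.18). The rule itself asked for pairs that do not overlap between treatments, with a mean difference of at least 1. Opposite signs are thus partly set by the choice of loci, and their share over all loci was not computed. AT3G28899, an unknown protein, differed by -0.50 and -0.64 without ABA and by 0.26 and 0.70 with ABA. PHB7 differed by -0.79 and -0.28 without ABA and by 0.87 and 0.23 with ABA. AT5G52050 differed by 0.51 and 1.17 without ABA and by -0.38 and -0.08 with ABA, and AGP5 by 0.36 and 0.54 without ABA and by -0.30 and -1.17 with ABA. The limma test of each of these differences between treatments gave an adjusted p of 1. The median of the gibberellin list did the same, at 0.02 and 0.20 without ABA and -0.10 and -0.15 with ABA, a difference of -0.24 that was not tested.

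One pair stood far from the other 3 in 2 of 73 sets of 4 paired differences or pair medians examined, where chance flags about 1 in 20. For AT2G17740, a DC1 domain gene, it was the ABA pair of replicate 2, at -2.18, against -0.28, -0.19 and -0.10 in the other pairs. For the aquaporins it was the untreated pair of replicate 2, at a median of -0.05, against 0.01 to 0.02 in the other pairs.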

How the results depend on the processing

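The number of loci past the adjusted threshold was 0 in all 5 comparisons. For both treatments together it remained 0 with any single pair left out. It also remained 0 without the replicate block and with the dimmest 30% of loci left out. The same held with arrays shifted to 1 median or normalized by quantiles again, and with every feature or another choice of feature. A minimum difference of 1 can only lower a count, so it could not test a count of 0. In the remaining fits GEM alone was called. GEM passed for both treatments together with all 12 arrays and the replicate block (1 locus, adjusted p = 0.0209) and with a variance trend (1 locus, adjusted p = 0.000653). With the variance trend it also passed without ABA (1 locus, adjusted p = 0.0184) and with ABA (1 locus, adjusted p = 0.0292). Over all features, GEM feature 1 had a limma adjusted p of 0.0227 with all 12 arrays and 0.000786 with a variance trend. Neither fit can change its mean difference of 1.26. With a pair left out that difference ran from 1.2 to 1.3. Feature 2 ran from -1.33 to -0.40. Other named loci did not pass under any alternative (lowest limma adjusted p 0.101). Without the replicate block, 0 loci passed for both treatments and 125 had an unadjusted p below 0.05. The set comparison was not fitted without the replicate block. With a pair left out, IRT1 ran from -2.18 to -1.46, FRO2 from -1.29 to -0.59, AT5G10760 from -1.34 to -0.71 and CYP71B22 from 0.60 to 1.26. List medians moved beyond the spread of the pairs in 2 of 403 cases. These were the GEM-like family at 0.17 without the ABA pair of set 2 and the ABA-induced markers at 0.05 without the untreated pair of set 1. Many of the 403 cases could not move. The fits without the replicate block, with all 12 arrays or with a variance trend give the same mean differences, and the table of all samples holds the same values. With a pair left out, the medians ran from -0.65 to -0.28 for iron uptake, from -0.44 to -0.20 for the flavonoid list, from 0.12 to 0.30 for rapid stress and touch, from 0.08 to 0.20 for auxin, from -0.01 to 0.28 for hypoxia, from -0.37 to -0.14 for seed storage and from -0.23 to -0.11 for heat shock. The 4 pairs, and possibly compression of values above 15, limit what could be resolved.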
